A study of Mus musculus with 20 samples.

Results

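The genes described here encode the subunits of oxidative phosphorylation that are carried by the nuclear genome, measured in the brain of mice with a null mutation. A probe counted as a member when its only gene symbol began with Nduf, Uqcr or Atp5, was one of Sdha to Sdhd, Cycs or Cyc1, or named a cytochrome c oxidase subunit from Cox4 to Cox8, and when it had a value on at least 3 arrays in every region. This gave 58 genes on 71 probes, of 7117 named genes and 15245 probes on the array, 10797 of which had as many values. The symbols alone matched 80 probes of 63 genes. Of the 58 genes, 54 (64 probes) also had a value in both dye orientations of every region and entered the tests.

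The null group was RNA of cortex, hippocampus, cerebellum or brain stem-diencephalon from mutant mice, and the control was a pool of RNA from that region of wild-type mice. RNA was amplified, no treatment was named, and each of 20 arrays with 2 channels compared a null sample with the pool. The sources used here give no strain, age, sex, allele or number of animals pooled. Arrays of a region with the same number were averaged, which left 13 replicates: 4 in cortex and 3 in each other region. The replicate called 4 in cortex was a dye-swapped array without a number, which may repeat a numbered extract. No source says that numbers mark separate animals, so the p-values rest on the spread among these samples, which may be technical, and the pool's own spread is left out. Every value below is a log2 ratio of null over wild type, centred on its array's median. The order of the channels is only likely, and if it was the opposite, every sign turns. Whether a sample held the region named was not tested, and a ratio against a pool would not show a wrong region shared by both channels. In bulk tissue, fewer cells of a type and less RNA per cell cannot be told apart.

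In the inner membrane of mitochondria, complexes I and II pass electrons from NADH and succinate to ubiquinone, complex III passes them to cytochrome c, and complex IV to oxygen. Complexes I, III and IV pump protons as they do so, and complex V, the ATP synthase, lets the protons return through its membrane sector and makes ATP in its F1 head. Neurons draw much of the ATP that restores their ion gradients from this chain. Most subunits are nuclear genes, and many of their promoters carry sites for NRF1, for ETS factors (GABP, also called NRF2) and for YY1.

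For the members whose ratio is described below, the promoters of 3 are shown because they hold these sites in different combinations: Cox8a, which had the lowest ratio of all members, Cox6a1, another lower subunit of complex IV, and Sdha, a higher member. Each runs from 250 bases before the start of the gene to 10 after it, in the direction of transcription, from RefSeq on GRCm38.p6. The windows lie at chr19:7217607-7217866 for Cox8a, chr5:115348949-115349208 for Cox6a1 and chr13:74350231-74350490 for Sdha, all on the minus strand. Capitals mark matches to NRF1 (GCGCA and GCGC on either side of 1 base of any kind) or ETS (CCGGAAG) on either strand.
Cox8a: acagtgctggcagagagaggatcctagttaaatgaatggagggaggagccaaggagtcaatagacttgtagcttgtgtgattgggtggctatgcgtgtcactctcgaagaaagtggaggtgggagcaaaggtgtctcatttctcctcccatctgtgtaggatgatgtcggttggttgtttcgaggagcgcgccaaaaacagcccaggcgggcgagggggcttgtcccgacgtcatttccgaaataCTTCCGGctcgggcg
Cox6a1: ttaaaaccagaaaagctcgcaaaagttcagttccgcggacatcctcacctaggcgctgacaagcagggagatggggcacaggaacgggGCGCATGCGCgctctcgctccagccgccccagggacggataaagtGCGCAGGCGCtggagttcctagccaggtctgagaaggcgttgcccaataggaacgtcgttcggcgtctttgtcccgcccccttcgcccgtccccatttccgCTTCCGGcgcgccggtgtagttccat
Sdha: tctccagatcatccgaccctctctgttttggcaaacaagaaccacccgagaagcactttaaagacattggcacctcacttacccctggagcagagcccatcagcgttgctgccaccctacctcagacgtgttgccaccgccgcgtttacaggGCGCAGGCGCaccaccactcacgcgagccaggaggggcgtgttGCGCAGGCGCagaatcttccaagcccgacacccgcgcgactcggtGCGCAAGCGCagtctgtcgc
Cox8a had an ETS match at position -5 from the start and another at 33, past the stretch shown. Cox6a1 had NRF1 matches at -162 and -117 and an ETS match at -16, and Sdha had NRF1 matches at -98, -55 and -10. The position given is that of the first base of the match. In whole windows of 300 bases, 44 of the 54 members had an entry. A gene counted when any of its windows held a match. An NRF1 match lay in 9 of them (20.5%), against 13.3% of the 4283 tested genes with an entry and 5.19% of all 27025 genes with one. An ETS match lay in 17 (38.6%), against 22.8% and 9.93%. A YY1 match, spelled AANATGGCG, lay in 8 members (18.2%), against 7.63% and 2.76%. None of the 3 spellings contains another, and 15 members with an entry held none of them. Among the 11 members with an entry that passed the test in the mean of the regions, 2 held NRF1, 4 held ETS and 1 held YY1.

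Within single regions, 1 member passed the test. Cox8a, a small subunit of complex IV that spans the membrane, was lower in cerebellum, and no member passed in cortex, hippocampus or brain stem-diencephalon. Of all 8319 features, 3.22% passed in cortex, 0.601% in hippocampus, 3.08% in cerebellum (1.69% lower) and 0.385% in brain stem-diencephalon. Passing means an adjusted p under 0.05 by limma's moderated test with Benjamini-Hochberg adjustment over all features. At an unadjusted p under 0.05 the members numbered 14 in cortex, 13 in cerebellum, 4 in hippocampus and 8 in brain stem-diencephalon, against 2206, 1864, 1121 and 1108 of all features.

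Over the mean of the 4 regions, 12 of the 54 members passed, 4 higher and 8 lower. Of all features 25.7% passed in the mean, 12.8% higher and 13% lower, so the members' share lay near the background. The lower genes were Cox8a and Cox6a1 of complex IV, Atp5j2, Atp5g1, Atp5l and Atp5d of complex V, cytochrome c (Cycs) and Ndufc2 of complex I. The higher genes were Uqcrc2 of complex III, Sdha of complex II, and Ndufs3 and Ndufa12 of complex I. No member differed between regions by limma's F test (lowest adjusted p = 0.999), nor did any of all features (0%), and none passed in the 6 pairwise differences, where 1 feature (0.012%) passed between cortex and hippocampus, 1 (0.012%) between cortex and cerebellum and 0 (0%) elsewhere. The unadjusted F test had p under 0.05 for 2 members, Atp5md and Ndufa13, and for 3.75% of all features. The regions of one number may come from one animal, and 1 array appeared in 2 regions, so p-values of the mean may be too small.

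**Figure D1:**
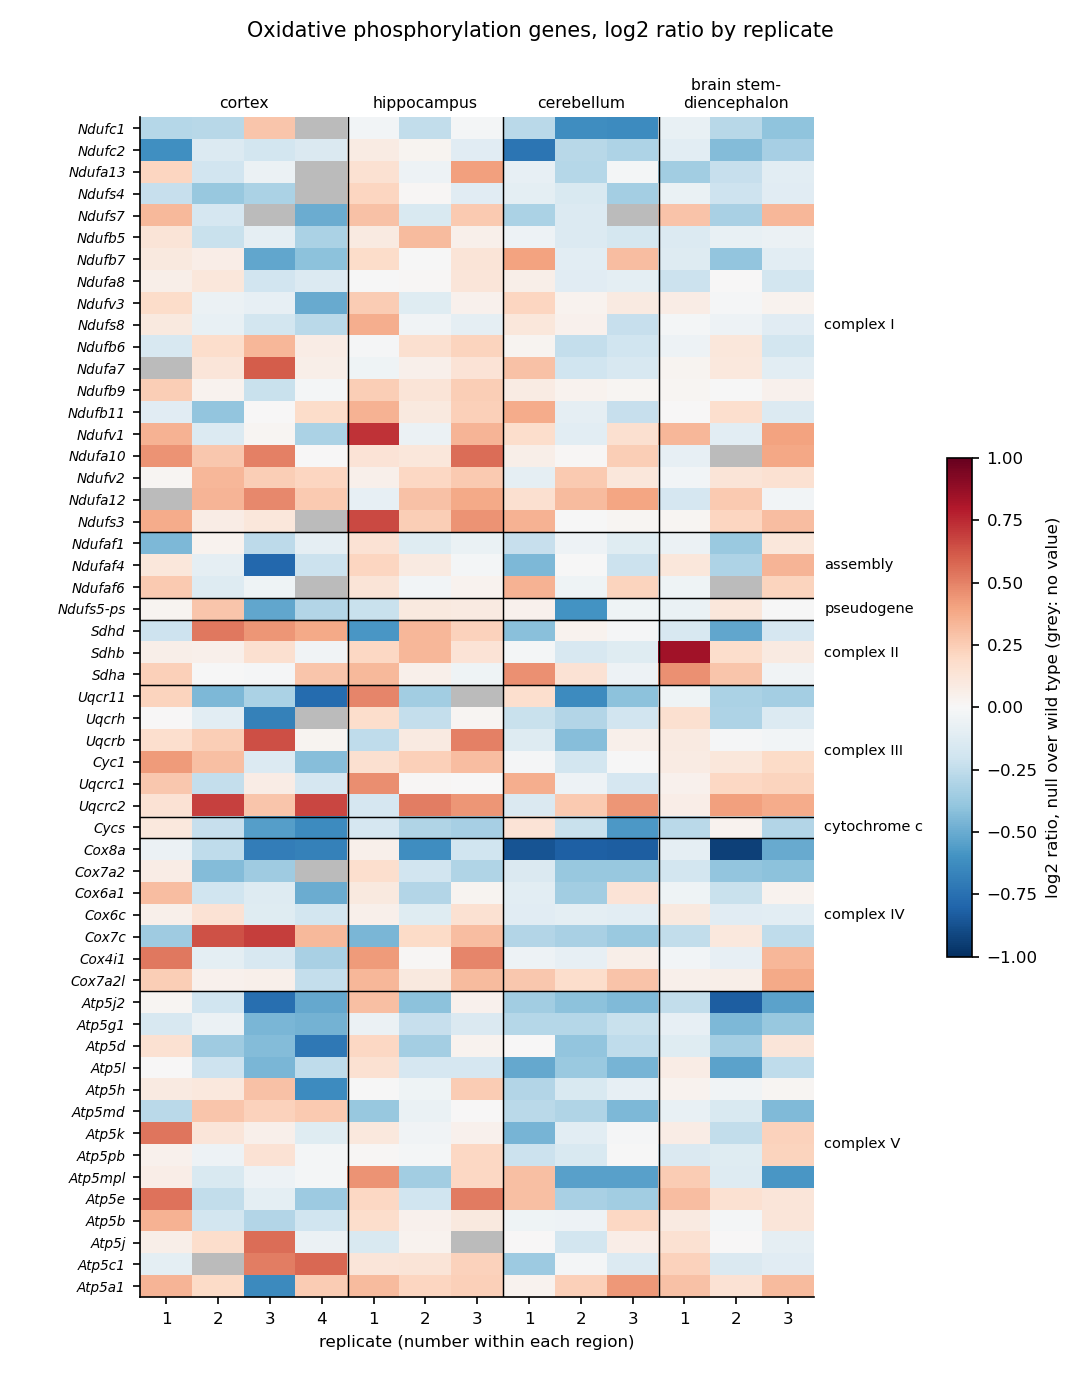
Log2 ratio of null over wild type for the 54 members (rows, grouped by complex and ordered by their mean) in the 13 replicates (columns, by region), with grey for a missing value. Cox8a sat at -0.86, -0.82 and -0.82 in the cerebellum columns, where number 1 averaged arrays at -0.43 and -1.30, and number 2 arrays at -0.61 and -1.02. The median of all members was 0.10 in cortex replicate 1 but -0.17 in replicate 4, the unnumbered array.

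One array stood under 2 labels. The swapped array of cerebellum number 1 and that of brain stem-diencephalon number 2 correlated at 0.9952 over 6748 probes, against at most 0.7432 for any other of the 190 pairs of arrays. The sources used here do not give its true region, so the members that passed are also given without it. Each array had the null sample in channel 1 (12 arrays) or, swapped, in channel 2 (8 arrays), number 3 had channel 1 arrays only, and replicate values therefore differ in their balance of the dyes. Arrays held values for 6793 to 13963 probes, and precision is limited by how few arrays there were. Mean ratios of the 2 dye orientations, before any sign was turned, had correlations over probes of -0.222 (cortex), -0.164 (hippocampus), -0.276 (cerebellum) and -0.156 (brain stem-diencephalon). Single arrays of one region had a median correlation of 0.419 within an orientation. Between orientations it was -0.068, or -0.088 after each orientation's mean was removed, where full agreement of the dyes would be strongly negative. The dyes therefore agreed only weakly, which limits every ratio given here. The Y-linked gene Eif2s3y lay between -1.36 and -0.44 on the arrays of number 1, apart from the array with 2 labels (1.71), and between 0.93 and 1.71 on all other arrays with a value. The number of a sample and the balance of the sexes between null and pool therefore cannot be told apart.

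By count and median of their estimates, the members lay below 0 in 3 regions and above 0 in hippocampus, though not in every replicate. In cortex 36 of 54 estimates were below 0 (median -0.07), in cerebellum 39 (median -0.14) and in brain stem-diencephalon 35 (median -0.05). In hippocampus 38 were above 0 (median 0.05). Over all features the share below 0 was 50.3%, 48.9%, 48% and, in hippocampus, 48.2%, with medians between -0.0013 and 0.0077. Medians of the members by replicate were 0.10, -0.06, -0.08 and -0.17 in cortex and 0.15, 0.01 and 0.13 in hippocampus. They were -0.05, -0.14 and -0.10 in cerebellum and -0.02, -0.08 and -0.03 in brain stem-diencephalon. Cortex replicate 1 had 12 of 52 members below 0, and hippocampus replicate 2 had 26 of 54. In cerebellum 23 members lay below 0 in every replicate with a value, against 22.2% of all features. In hippocampus 14 lay above 0 in every replicate, against 18.6%, and in brain stem-diencephalon 14 lay below, against 18.1%. In cortex, 4 members lay below 0 in every replicate, against 11.4% of all features, and 7 above, against 13.2%. Without the array with 2 labels, 42 members were below 0 in cerebellum (median -0.13) and 40 in brain stem-diencephalon (median -0.08). With no term for dye orientation, 25 were below 0 in brain stem-diencephalon (median -0.0022).

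Some members kept a single sign across the regions. Estimates were below 0 in all 4 regions for 11 members: Atp5d, Atp5g1, Atp5h, Atp5j2, Atp5l, Cox6a1, Cox7a2, Cox8a, Cycs, Ndufc1 and Uqcrh. They were above 0 in all 4 for 7: Atp5a1, Ndufa10, Ndufb9, Ndufs3, Ndufv2, Sdha and Uqcrc2. The same held for 24.4% and 25.4% of all features. Atp5g1 was the 1 member below 0 in all 13 replicates, as were 2.34% of all features.

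**Figure D2:**
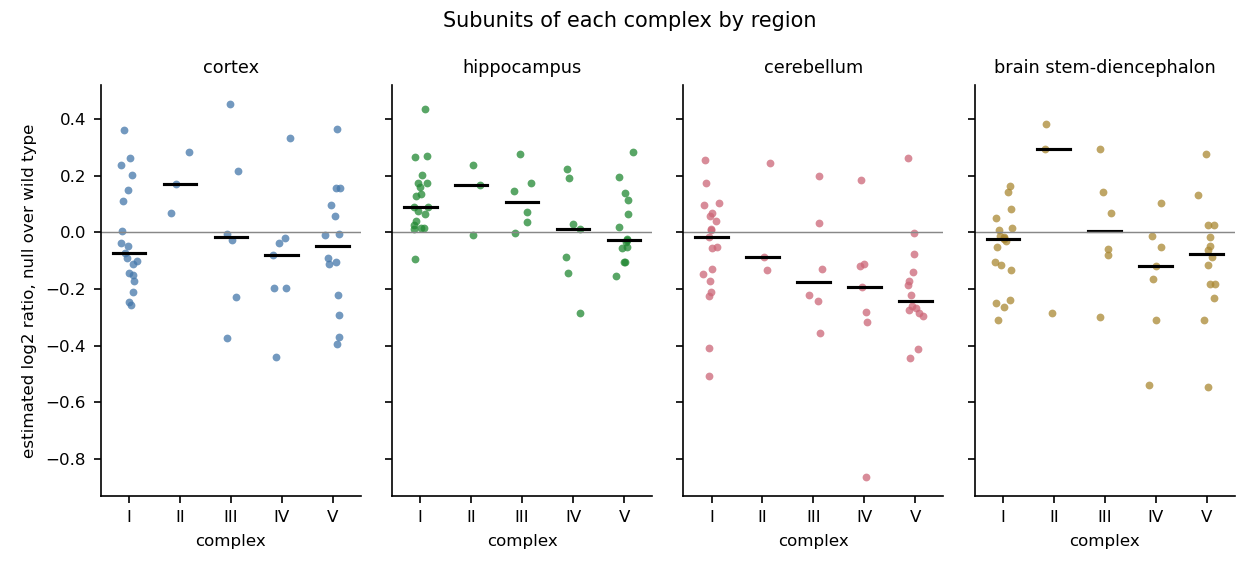
Estimated log2 ratio of null over wild type of each subunit (points) by complex and region, with black bars for the median of a complex. Complex I sat mostly above 0 in hippocampus (18 of 19 subunits), and complex V mostly below 0 in cerebellum (13 of 14).

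Complex I, the NADH dehydrogenase and the entry point of most electrons, had 19 subunits in the tests. In hippocampus 18 of 19 lay above 0, with a median of 0.09, the lowest at -0.09 and the highest at 0.43. In the other regions 12, 10 and 13 lay below 0 in cortex, cerebellum and brain stem-diencephalon. No subunit passed in hippocampus, and over the alternative settings between 0 and 2 subunits lay below 0 there, or between 1 and 6 when single replicates were left out. Some of those settings tested fewer subunits. The 5 core subunits measured (Ndufs3, Ndufs7, Ndufs8, Ndufv1 and Ndufv2), which form the catalytic arm of the enzyme, were a group chosen after the values were seen. Their estimates were all above 0 in hippocampus (median 0.17). By replicate, 0, 3 and 1 of the 5 lay below 0 there in replicates 1, 2 and 3, and 2 were above 0 in every replicate.

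Ndufs3, a core subunit of the arm that reaches into the matrix, rose in the mean of the regions. Its values were 0.37, 0.07 and 0.11 in cortex, 0.66, 0.24 and 0.45 in hippocampus, 0.35, -0.0022 and 0.02 in cerebellum and 0.02, 0.22 and 0.31 in brain stem-diencephalon. All but 1 of 12 values were above 0, and those of hippocampus were the highest group though they overlapped cortex, cerebellum and brain stem-diencephalon. Its mean was 0.21 ± 0.07 (SE, adjusted p = 0.0490 by limma). With the array of 2 labels left out the mean was 0.14 and no longer passed (adjusted p = 0.259).

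Ndufa12, an accessory subunit, also rose in the mean. It had values of 0.34, 0.48 and 0.26 in cortex (none for number 1), -0.08, 0.29 and 0.38 in hippocampus, 0.16, 0.31 and 0.40 in cerebellum, and -0.16, 0.26 and -0.03 in brain stem-diencephalon. Cortex and cerebellum were above 0 throughout, and the other regions held both signs. The mean was 0.19 ± 0.06 (adjusted p = 0.0297 by limma), and 0.16 without the array with 2 labels (adjusted p = 0.110).

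Ndufc2, an accessory subunit of the membrane arm, fell in the mean. Its values were -0.61, -0.13, -0.18 and -0.14 in cortex, 0.08, 0.03 and -0.11 in hippocampus, -0.73, -0.28 and -0.31 in cerebellum, and -0.11, -0.44 and -0.33 in brain stem-diencephalon. The lowest values of cortex and cerebellum were those of number 1, and 11 of 13 values lay below 0. The mean was -0.22 ± 0.06 (adjusted p = 0.0194 by limma), and -0.16 without the array with 2 labels (adjusted p = 0.0787). Ndufc2 was below 0 on all 12 arrays with the null sample in channel 1 (-0.73 to -0.01) and on 3 of 6 swapped arrays with a value (-0.21 to 0.25). Its neighbour in that arm, Ndufc1, had the lowest mean of complex I (-0.24 ± 0.08, adjusted p = 0.0527 by limma) and values of -0.27, -0.62 and -0.63 in cerebellum.

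The 3 assembly factors caught by the rule, which help build complex I and are not part of it, had means of -0.09 ± 0.06 (Ndufaf1), -0.08 ± 0.08 (Ndufaf4) and 0.02 ± 0.08 (Ndufaf6), and none passed. The rule also caught a pseudogene, Ndufs5-ps, at -0.09 ± 0.08, whose probe may also bind RNA of Ndufs5.

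Complex II, succinate dehydrogenase, is also an enzyme of the citric acid cycle and had 3 subunits in the tests. Sdha, the flavoprotein that oxidises succinate, rose in the mean. Its values were 0.24, -0.0016, -0.01 and 0.28 in cortex, 0.32, 0.05 and -0.05 in hippocampus, 0.46, 0.15 and -0.05 in cerebellum, and 0.46, 0.28 and -0.04 in brain stem-diencephalon. Number 1 was the highest of the numbered replicates in every region, and number 3, which has no swapped array, lay below 0 throughout. By dye, Sdha was above 0 on all 8 swapped arrays (0.16 to 0.89) and on 4 of the 12 arrays with the null sample in channel 1 (-0.32 to 0.50). The part of the dye in its values was not tested beyond the orientation term of the model, without which the mean was 0.16 (adjusted p = 0.0491 by limma). The mean was 0.22 ± 0.06 (adjusted p = 0.0150 by limma), and 0.17 without the array with 2 labels (adjusted p = 0.110). Its 2 probes had means of 0.13 ± 0.06 and 0.34 ± 0.07, and when each probe was tested alone the second passed (adjusted p = 0.00597) and the first did not (adjusted p = 0.148).

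Sdhb, the iron-sulfur subunit, had a mean of 0.15 ± 0.06 (adjusted p = 0.102 by limma), with 0.84, 0.18 and 0.09 in brain stem-diencephalon, where 1 replicate stood well above the others. Sdhd, a membrane anchor, had a mean of -0.04 ± 0.09. Its values were -0.21, 0.53, 0.44 and 0.38 in cortex and -0.58, 0.33 and 0.23 in hippocampus, so number 1 had the opposite sign to the other replicates in both.

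Complex III, the cytochrome bc1 complex, had 6 subunits in the tests, and its core protein Uqcrc2 rose in the mean. The values of Uqcrc2 were 0.15, 0.69, 0.28 and 0.66 in cortex, -0.17, 0.51 and 0.45 in hippocampus, -0.14, 0.26 and 0.44 in cerebellum, and 0.07, 0.41 and 0.37 in brain stem-diencephalon. Number 1 was the lowest replicate of every region, and the other 9 replicates were all above 0. The mean was 0.30 ± 0.08 (adjusted p = 0.0171 by limma), the highest of all members. Its 2 probes gave 0.32 ± 0.10 and 0.30 ± 0.08, and both passed alone. Without the array with 2 labels the mean was 0.33 with adjusted p = 0.0507. Uqcrc1, the other core protein, had a mean of 0.07 ± 0.07.

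At the other end of complex III, Uqcr11, its smallest subunit, had a mean of -0.24 ± 0.10 (adjusted p = 0.10 by limma). Its values in number 1 were 0.22 in cortex, 0.17 in cerebellum, 0.49 in hippocampus and -0.04 in brain stem-diencephalon, each above all other values of its region, which lay between -0.77 and -0.31. Cyc1, the haem-bearing cytochrome c1, had a mean of 0.03 ± 0.06, with 3 of 6 subunits of the complex above 0 and 3 below.

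Cytochrome c, the mobile carrier between complexes III and IV, fell in the mean. Cycs had values of 0.11, -0.23, -0.55 and -0.63 in cortex, -0.17, -0.30 and -0.34 in hippocampus, 0.13, -0.23 and -0.57 in cerebellum, and -0.27, 0.03 and -0.29 in brain stem-diencephalon. Hippocampus alone had all replicates below 0. The mean was -0.25 ± 0.08 (adjusted p = 0.0357 by limma). Without the array with 2 labels it was -0.33 (adjusted p = 0.0131), and that array had Cycs at 0.40 under both labels.

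Complex IV, cytochrome c oxidase, had 7 genes in the tests, of which 6 lay below 0 in cortex, cerebellum and brain stem-diencephalon and 3 in hippocampus. Cox8a fell most. Its values were -0.05, -0.25, -0.69 and -0.67 in cortex, 0.05, -0.62 and -0.20 in hippocampus, -0.86, -0.82 and -0.82 in cerebellum, and -0.09, -0.93 and -0.50 in brain stem-diencephalon. In cerebellum the replicate values were close, but number 1 averaged arrays at -0.43 and -1.30, and number 2 arrays at -0.61 and -1.02. The array at -1.30 was the one with 2 labels. Of 13 replicates, 12 were below 0. In cerebellum the estimate was -0.86 ± 0.17, a 1.82-fold lower level (adjusted p = 0.0201 by limma). In cortex it was -0.44 ± 0.14 (adjusted p = 0.0815), in hippocampus -0.29 ± 0.17 (adjusted p = 0.482) and in brain stem-diencephalon -0.54 ± 0.17 (adjusted p = 0.178). The mean was -0.53 ± 0.09 (adjusted p = 0.00141 by limma).

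The array with 2 labels had Cox8a at -1.30 under both labels, and the other arrays of these replicates had it at -0.43 in cerebellum number 1 and -0.56 in brain stem-diencephalon number 2. Without it the estimate in cerebellum was -0.72 and no longer passed (adjusted p = 0.0879), and the mean was -0.46, which still passed (adjusted p = 0.00827). Leaving out cerebellum replicate 1, 2 or 3 also ended the call in cerebellum, with adjusted p of 0.0831, 0.149 and 0.118. Without cortex replicate 1, Cox8a passed in cortex as well, at -0.54 (adjusted p = 0.0296 by limma). In that fit 11 members and 18.4% of all features passed in cortex, against 3.22% of all features in the main fit.

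Cox6a1, an accessory subunit of complex IV, fell in the mean (-0.17 ± 0.06, adjusted p = 0.0384 by limma). Its values were 0.31, -0.20, -0.13 and -0.49 in cortex, 0.09, -0.29 and 0.03 in hippocampus, -0.10, -0.35 and 0.13 in cerebellum, and -0.05, -0.22 and 0.03 in brain stem-diencephalon. In cortex and hippocampus number 1 was the highest value, and no region kept a single sign. The sign went with the dye: Cox6a1 was below 0 on all 8 swapped arrays (-0.66 to -0.07) and above 0 on 8 of the 12 arrays with the null sample in channel 1 (-0.13 to 0.31). With no term for orientation its mean was -0.09 and did not pass (adjusted p = 0.300 by limma), and without the array with 2 labels it was -0.17 and did not pass either (adjusted p = 0.0872). Cox7a2 had a mean of -0.22 ± 0.08 (adjusted p = 0.0587), with all 3 replicates below 0 in cerebellum and in brain stem-diencephalon. The highest gene of the group, Cox7a2l, is a relative of Cox7a2 that takes part in joining complexes into supercomplexes. It had a mean of 0.12 ± 0.05 (adjusted p = 0.0821) and values of 0.27, 0.18 and 0.29 in cerebellum. Cox4i1, the largest nuclear subunit, had a mean of 0.0050 ± 0.06.

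**Figure D3:**
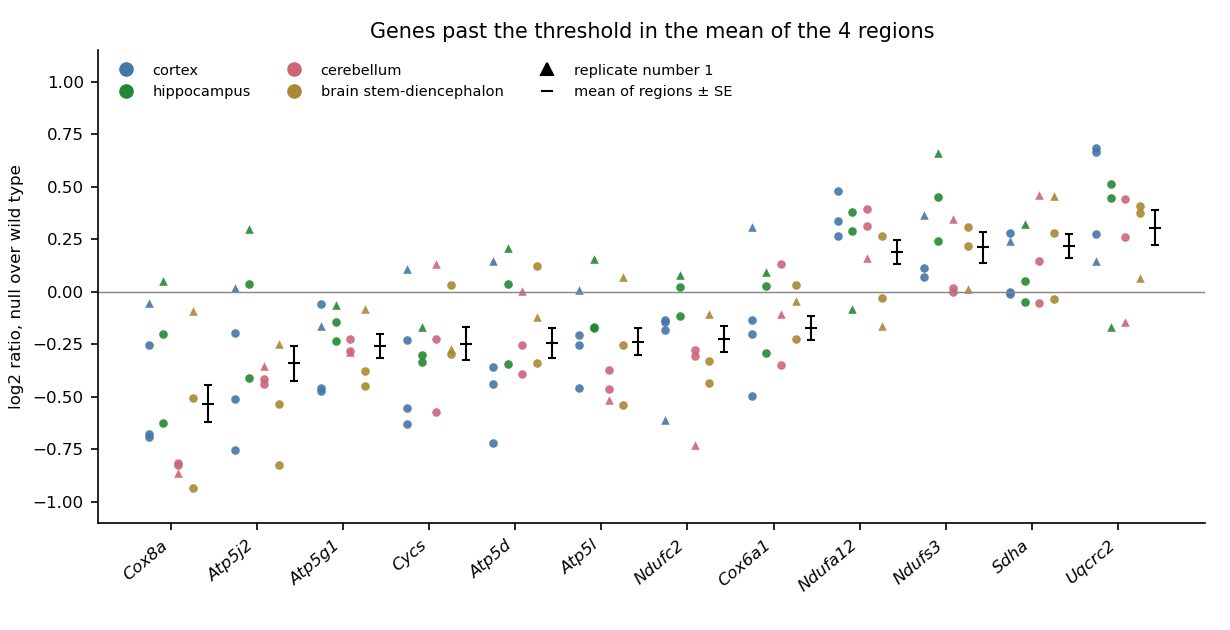
Log2 ratio of null over wild type in every replicate (points, by region; triangles for number 1) for the 12 members that passed in the mean of the 4 regions, with the fitted mean and its SE beside them. Triangles of Uqcrc2 lay between -0.17 and 0.15 and its other points between 0.26 and 0.69, and Cox8a was below 0 in all points but 1.

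Complex V, the ATP synthase, had 14 subunits in the tests, of which 13 lay below 0 in cerebellum with a median of -0.24, and 9, 8 and 10 in cortex, hippocampus and brain stem-diencephalon. No subunit passed in a single region. Over the alternative settings, some of which tested fewer subunits, 11 to 13 lay below 0 in cerebellum. Without the array with 2 labels 13 of 14 did (median -0.22). The genes were also divided by their place in the enzyme, a split made after the values were seen. The 9 genes of the membrane sector and the peripheral stalk all had estimates below 0 in cerebellum (median -0.27) and in brain stem-diencephalon (median -0.11). In hippocampus 7 of 9 did. Below 0 in every replicate with a value were 7 of the 9 in cerebellum but 3 in brain stem-diencephalon. There, replicate 1 had 4 of 9 below 0 (median 0.03). Of the 5 genes of the F1 head and its central stalk, 4 lay below 0 in cerebellum (median -0.14), and 4 lay above 0 both in hippocampus and in brain stem-diencephalon. With other settings the membrane and stalk genes below 0 numbered 8 to 9 in cerebellum but 6 to 9 in brain stem-diencephalon. Some of those settings tested fewer of these genes.

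**Figure D4:**
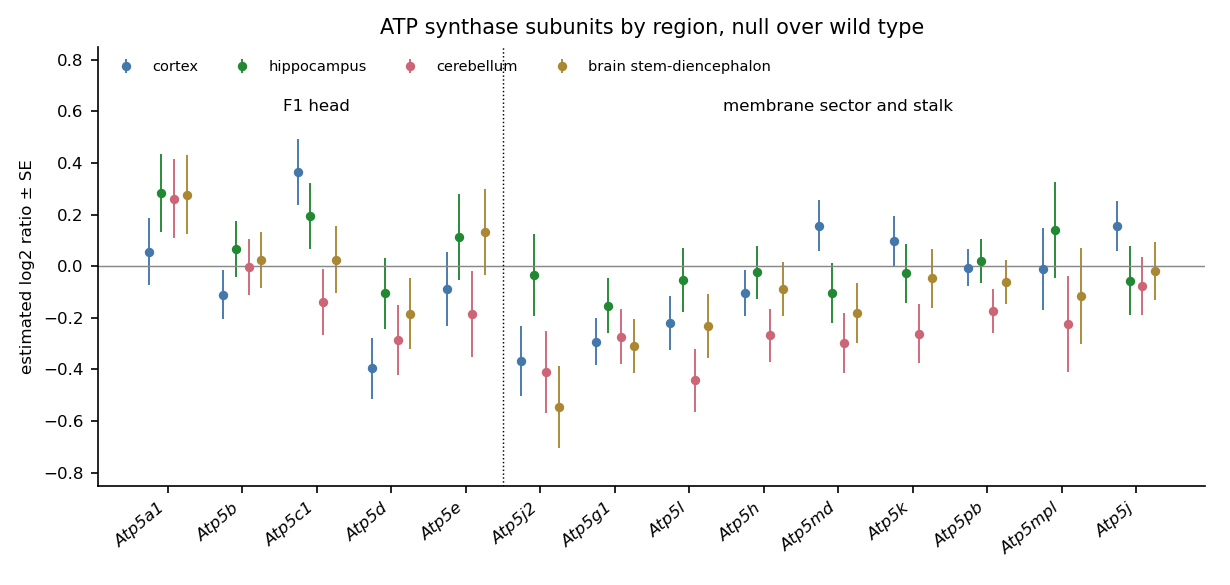
Estimated log2 ratio of null over wild type with its SE for the 14 ATP synthase genes in the 4 regions, with the F1 head at left and the membrane sector and stalk at right. Cerebellum sat below 0 for every gene but Atp5a1, and Atp5a1 sat above 0 in all 4 regions.

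Atp5g1, one of the genes for the c subunit whose ring turns in the membrane, fell in the mean. Its values were -0.16, -0.06, -0.46 and -0.47 in cortex, -0.06, -0.23 and -0.14 in hippocampus, -0.29, -0.28 and -0.22 in cerebellum, and -0.08, -0.45 and -0.38 in brain stem-diencephalon. All 13 replicates were below 0, and the ranges of the regions overlapped. The mean was -0.26 ± 0.06 (adjusted p = 0.00571 by limma), and -0.22 without the array with 2 labels (adjusted p = 0.0301).

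Atp5j2, the f subunit of the membrane sector, fell furthest of complex V in the mean, at -0.34 ± 0.08 (adjusted p = 0.0105 by limma). Its values were 0.02, -0.20, -0.75 and -0.51 in cortex, 0.30, -0.41 and 0.04 in hippocampus, -0.35, -0.41 and -0.44 in cerebellum, and -0.25, -0.83 and -0.54 in brain stem-diencephalon. The values above 0 came from cortex and hippocampus, and 10 of 13 lay below 0. The array with 2 labels had no value for it, and the mean without that array was -0.32 (adjusted p = 0.0339).

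Atp5l, the g subunit, also of the membrane sector, fell in the mean (-0.24 ± 0.06, adjusted p = 0.0174 by limma). It had values of 0.01, -0.20, -0.46 and -0.25 in cortex, 0.16, -0.17 and -0.17 in hippocampus, -0.51, -0.37 and -0.46 in cerebellum, and 0.07, -0.54 and -0.25 in brain stem-diencephalon. Cerebellum was the region with every replicate well below 0, at an estimate of -0.44 ± 0.12 (adjusted p = 0.0622). The mean was -0.19 when the array with 2 labels was left out (adjusted p = 0.0672).

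Atp5d, the delta subunit of the central stalk, fell in the mean (-0.24 ± 0.07, adjusted p = 0.0254 by limma). Its values were 0.15, -0.36, -0.44 and -0.72 in cortex, 0.21, -0.34 and 0.04 in hippocampus, 0.0048, -0.39 and -0.25 in cerebellum, and -0.12, -0.34 and 0.12 in brain stem-diencephalon. Number 1 gave the highest value in all regions but brain stem-diencephalon. The mean was -0.27 when the array with 2 labels was left out (adjusted p = 0.0573 by limma). By dye, Atp5d was below 0 on 7 of 8 swapped arrays (-0.72 to 0.16). On the 12 arrays with the null sample in channel 1 it was below 0 on 6 and above on 6 (-0.45 to 0.30). With no term for orientation it did not pass in the mean.

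Atp5a1, the alpha subunit of the F1 head, had the highest mean of complex V, at 0.22 ± 0.08 (adjusted p = 0.0587 by limma). Its values were 0.34, 0.19, -0.63 and 0.26 in cortex, 0.32, 0.22 and 0.24 in hippocampus, 0.04, 0.24 and 0.44 in cerebellum, and 0.30, 0.15 and 0.32 in brain stem-diencephalon. Of 13 replicates, 12 were above 0, and cortex replicate 3 stood apart. Without the array with 2 labels it passed, at 0.28 (adjusted p = 0.0408). Atp5b, the catalytic beta subunit, had a mean of -0.0058 ± 0.06.

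Of the 8 members with several probes in the tests, Sdha and Ndufb5 had the probes that differed most in the mean. The 3 probes of Atp5b had means of -0.04, -0.0092 and 0.02, and the 3 of Cox4i1 had 0.0073, -0.03 and 0.07. The 2 probes of Cox7a2l had 0.10 and 0.13, those of Uqcrc1 0.07 and 0.12, and those of Ndufb5 -0.0010 and -0.13. Atp5h, of the peripheral stalk, had -0.16 and -0.10, and the first passed when probes were tested alone (adjusted p = 0.0429 by limma), though the gene did not (-0.12 ± 0.05, adjusted p = 0.114). Outside the tests, Atp5c1, Atp5l and Uqcrb had a further probe that met the rule, with medians over arrays of -0.08, -0.26 and -0.33. Their tested probes had medians of 0.04, -0.25 and 0.03.

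Number 1 stood apart from the other replicates for many members. It was the highest replicate of its region for 23 of 43 members with all values in cortex, 27 of 53 in cerebellum, 28 of 52 in hippocampus and 23 of 52 in brain stem-diencephalon, or 53.5%, 50.9%, 53.8% and 44.2%. Over all features with all values the shares were 33.6%, 36.4%, 34.7% and 26.9% in the same order. For Uqcrc2 the 4 replicates of number 1 had a mean of -0.02 and a range of -0.17 to 0.15, and the other 9 had a mean of 0.45 and a range of 0.26 to 0.69, with no overlap. For Sdha the order was the opposite, with a mean of 0.37 in number 1 and 0.07 in the others, and the ranges overlapped. For Cox8a the means were -0.24 and -0.61, and for Atp5d 0.06 and -0.30. Eif2s3y split the arrays along the same line, apart from the array with 2 labels (1.71), which lay with the other numbers. That array is averaged into number 1 of cerebellum, so this replicate mixes both sides. The part of Eif2s3y in these differences was not tested.

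Several calls in the mean rested on single replicates. Without the unnumbered cortex array 1 member passed, Cox8a, and 10% of all features did. Without hippocampus, cerebellum or brain stem-diencephalon replicate 2 the counts were 6, 7 and 5, against 15.2%, 16.8% and 15.4% of all features. Without the array with 2 labels 5 passed (Cox8a, Atp5j2, Atp5g1 and Cycs lower, Atp5a1 higher), against 17.1% of all features. Cox8a passed in the mean in every fit with 1 replicate left out. Among single replicates, leaving out the unnumbered cortex array alone ended the calls of Atp5g1 (adjusted p = 0.0658 by limma), Atp5j2 (0.0801) and Sdha (0.0514). Ndufc2 was lost without it (0.0800), and likewise when replicate 1 of cerebellum (0.0505) or replicate 2 of brain stem-diencephalon (0.0661) was omitted.

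Uqcrc2 and Atp5l were lost without the unnumbered array (0.137 and 0.0998), hippocampus replicate 2 (0.0608 and 0.0575) or brain stem-diencephalon replicate 2 (0.0530 and 0.0627), all adjusted p-values of limma. Atp5d and Ndufa12 were lost without the unnumbered array (0.154 and 0.126) or without replicate 2 of hippocampus (0.0857 and 0.0907), cerebellum (0.0713 and 0.0783) or brain stem-diencephalon (0.0788 and 0.0959). Cycs, Cox6a1 and Ndufs3 passed in 6, 5 and 4 of the 13 fits with 1 replicate left out, with adjusted p up to 0.308, 0.300 and 0.259 over all alternatives. The direction of these 12 members in the mean was the same in every fit that tested them.

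In cortex the counts moved the other way. Without cortex replicate 1, 11 of 54 members passed, where 18.4% of all features did, and without hippocampus replicate 1, 3 passed, where 8.13% did. In cerebellum 3 passed without cortex replicate 1, cortex replicate 3 or hippocampus replicate 1 (4.46%, 4.03% and 5.05% of all features), and 2 without brain stem-diencephalon replicate 1 (3.38%). The share of all features that passed was higher in these fits too.

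Genes that supply, build or surround the chain were counted from lists chosen with earlier results known. The counts below stand against 12.8% of all features higher, 13% lower and 48.1% below 0 in the mean, and nothing particular to a list is read from them. In the citric acid cycle and pyruvate dehydrogenase, 18 of 25 genes were measured, 2 lay below 0 in the mean (median 0.10), 6 rose and 1 fell. Dld, the shared E3 subunit of the dehydrogenases, was at 0.34 ± 0.07 (adjusted p = 0.00507 by limma), Mdh1, the cytosolic malate dehydrogenase, at 0.24 ± 0.06 and Suclg1, of succinyl-CoA ligase, at 0.18 ± 0.04. In glycolysis 11 of 17 were measured, 8 lay below 0 (median -0.07), 3 fell and 0 rose: Ldha at -0.21 ± 0.06, Pfkl at -0.23 ± 0.07 and Hk1 at -0.14 ± 0.05.

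Of assembly factors of the chain, 14 of 42 were measured, with a median of -0.0016. The fallers were Coa5 (-0.31 ± 0.05, adjusted p = 0.00124 by limma) and Cox14 (-0.32 ± 0.09, adjusted p = 0.0224), both needed to build complex IV, and none rose. Of carriers and pores, 12 of 22 were measured, with a median of 0.12. In that list 3 rose and 3 fell, with Mpc1, of the pyruvate carrier, at 0.47 ± 0.07, Vdac2 at 0.28 ± 0.06 and the citrate carrier Slc25a1 at -0.42 ± 0.07. Of import machinery and chaperones, 23 of 30 were measured, with a median of -0.11, 1 riser (Tomm20, 0.28 ± 0.05) and 5 fallers, among them Tomm34 (-0.59 ± 0.11) and Timm44 (-0.35 ± 0.09).

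Of regulators of mitochondrial genes, 5 of 17 were measured and Ssbp1, which binds single-stranded mitochondrial DNA, rose (0.28 ± 0.08). Of genes that remove peroxide and superoxide, 11 of 16 were measured, with a median of 0.03. Gsr, glutathione reductase, fell (-0.63 ± 0.11), and Txn1 (0.35 ± 0.10) and Prdx4 (0.15 ± 0.05) rose. None of the 13 protein genes of the mitochondrial genome was measured, so the subunits made within mitochondria were not analysed here.

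Markers of cell types were measured in the same regions, and in single regions none of the microglial or astrocyte markers passed. Those that did, all lower, were 1 neuronal marker in cortex, 1 vessel or blood gene each in hippocampus and cerebellum, and Ttr in cerebellum. In cerebellum, where the members' median was -0.14, 4 of 10 microglial markers were measured and all lay above 0 (median 0.40), the 4 of 10 astrocyte markers measured lay above 0 (median 0.12), and 3 of 5 neuronal markers measured lay below 0 (median -0.18). In cortex, where the members' median was -0.07, the glial medians were below 0 and not above: all 4 microglial markers (median -0.27) and 3 of 4 astrocyte markers (median -0.13) lay below 0, as did 3 of 5 neuronal markers (median -0.26). In hippocampus, where the members' median was 0.05, all 5 neuronal markers (median -0.15) and 3 of 4 microglial markers (median -0.18) lay below 0, and the astrocyte median was -0.0085. In brain stem-diencephalon, where the members' median was -0.05, the medians were 0.11 for microglia, 0.01 for astrocytes and -0.06 for neurons. Over the mean of regions, the neuronal markers Tubb3 (-0.66 ± 0.11, adjusted p = 0.00136 by limma) and Stmn3 (-0.33 ± 0.09, adjusted p = 0.0226) fell, and the others measured (Gap43, Uchl1 and Nefl) did not pass. Of the 4 astrocyte markers measured, 1 rose in that mean, and no microglial marker passed in it. The vessel and blood genes measured had a median of -0.44 in the mean (Pecam1 and Cdh5 lower, Hbb-b1 higher). Ttr, of the choroid plexus, was at -0.65 in cortex, -1.07 in cerebellum, 0.65 in hippocampus and -0.31 in brain stem-diencephalon, and Mbp, of oligodendrocytes, was at -0.32, 0.23, -0.17 and 0.11 in the same order. The part of these cells in the members' ratios was not tested.

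Finally, 4 members lacked a value in a dye orientation of some region and were not tested: Atp5o, Cox6b2, Ndufb10 and Ndufs6. Their medians over their arrays were -0.02, -0.43, -0.22 and -0.34. Of the 5 genes that matched by symbol alone, Cox7b had a median of -0.26 over 15 arrays, and Atp5g3, Cox6b1, Ndufaf3 and Ndufs1 had no value on any array.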

How the data were processed

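The deposited values of each cDNA array were read as log2 ratios of its channels. Array medians lay between 0.00862 and 0.0609. The log scale and its base were inferred from the values, and neither they nor any centring, the channel order, background correction or normalization are given in the sources used here. Swapped arrays were multiplied by -1, each array was centred on its median, probes of a gene were averaged, and arrays of a region with one number were averaged as 1 replicate. A probe needed values on at least 3 arrays and on 1 array of each orientation in every region, which left 8319 features (5255 genes and 3064 unnamed probes). Probes were named from the platform annotation, updated through GRCm38.p6, where 9496 of 9604 single symbols matched. A linear model per feature with a term per region and for orientation was fitted, with variances moderated by limma (version 3.58.1, R 4.3.3, 8 residual and 5.92 prior degrees of freedom), and the script was tested on simulated data. Numbers were not used as pairs. Every member past the threshold was named, with the extremes of each complex, members with several probes and up to 3 genes of each list with the smallest p. The members and gene lists were chosen with earlier results of these data known. Alternatives covered centring, scaling, filters, probes, orientation, averaging, the replicate block, moderation and arrays left out. The splits of complexes I and V were added later. The mutated gene is not reported here.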

Additional observations from a re-analysis of the deposited data

Results flagged for a closer look

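Ndufc2, an accessory subunit of complex I, had 1 cortex replicate far from the others. Number 1 was at -0.61, while the other 3 lay between -0.18 and -0.13, a gap of 0.897 of the whole range. Of the 12 members past the threshold in the mean, 10 had the 4 cortex values that this comparison needs, and chance singles out about 1 in 20 such groups. The cerebellum value of number 1, at -0.73, was also the lowest of its region.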

How the results depend on the processing

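Same-numbered samples of different regions did not deviate together throughout (correlations -0.234 to 0.714 over 18 pairs, 12 over 0.1), and 4 of 12 numbered replicates correlated best with their own number. With the replicate number as a block (replicate block, 45 members tested), 6 members passed in cortex and 5 in cerebellum, against 0 and 1, where 14.8% and 9.53% of all features passed in the same fit, against 3.22% and 3.08%, and the block moved no other count by over 1.5 times; the median in brain stem-diencephalon moved to -0.09. With arrays not averaged but kept as a random block, 3 passed in cortex and 3 in cerebellum (8.97% and 8.51% of all features). Without the channel 1 arrays of number 1, 9 passed in cortex and 5 in cerebellum (17.4% and 11.3%). With no orientation term 3 passed in cerebellum (3.2%), and the brain stem-diencephalon median was -0.0022. With a variance trend and robust moderation 0 passed in cerebellum (0.288%), and without the array with 2 labels (the repeated array) 0 passed there (0.553%), 5 passed in the mean (17.1%), and the brain stem-diencephalon median was -0.08. Leaving out single replicates gave 0 to 11 members in cortex, 0 to 3 in cerebellum and 1 to 15 in the mean, and a median in brain stem-diencephalon from -0.09 to -0.03. Of the 12 members called in the mean, Atp5d, Cox6a1, Ndufs3 and Sdha were lost with arrays scaled to one spread, Atp5d and Cox6a1 with no orientation term, Cox6a1 and Ndufs3 with no filter on missing values, Ndufs3 with each probe tested alone or with the variance trend, and Ndufc2 without the channel 1 arrays of number 1. In hippocampus, in brain stem-diencephalon and in the F test the count stayed at 0 in every setting run. No value changed sign past the threshold. The cause of these differences was not tested. Signal over background was not analysed here, so weak spots cannot be told from strong ones.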
